A study of Gallus gallus with 10 samples.

Results

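Kidney RNA-seq libraries of broiler chickens fed 1.0% Ca were compared with those of broilers fed 1.2% Ca. The members were 7 of the 10 libraries of the series, chosen by the Ca intake that the labels give, 4 birds at 1.0% Ca and 3 birds at 1.2% Ca, with 1 library per bird. All birds were Ross 308 broilers sampled at 21 days post-hatch, and both diets held the same available phosphorus and phytase, an enzyme that frees plant phosphorus. The sequenced birds were picked for body weights near the mean of their diet. The other 3 birds received 0.8% Ca, and their libraries entered the fit to help estimate the spread between birds and are given for reference.

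The kidney sets how much filtered Ca returns to the blood, and a high Ca intake raises the amount lost in urine. In birds the main granulocyte is the heterophil, the counterpart of the mammalian neutrophil, whose granules hold beta-defensins and cathelicidins, short peptides that kill microbes. Macrophages and related phagocytes reside in the kidney and can enter it from the blood. Transferrin binds iron in plasma and egg white and is an acute-phase protein of chickens.

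Counted fragments ranged from 6214978 to 7461321 per library at 1.0% Ca and from 6923832 to 7857813 at 1.2% Ca, so a gene at 1 CPM (counts per 1e6 counted fragments) rested on 6.13 to 7.82 counts. After removal of low counts, 12187 of 17108 genes were tested. CPM below are on library sizes scaled by TMM, a factor per library that offsets differences in composition. By the file headers, the 1.2% Ca birds and the first pair at 1.0% Ca (replicates 1 and 2) were run in sequencing lane 1. The second pair at 1.0% Ca (replicates 3 and 4) was run in lane 2. For replicates 3 and 4, lane and diet cannot be told apart in the contrast with 1.2% Ca, and the main results are restated with the 5 lane 1 libraries. The libraries at 0.8% Ca were all run in lane 2, so lane and diet cannot be told apart between 0.8 and 1.2% Ca either. None of 16 kidney segment markers could be identified by name, so the tissue label was not checked with them.

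No gene passed an adjusted p of 0.05 between 1.0 and 1.2% Ca by edgeR's quasi-likelihood test, a background of 0% of 12187 genes. At an unadjusted p under 0.05 there were 466 genes (3.82%), split into 298 with more (2.45%) and 168 with less RNA (1.38%) on the 1.2% Ca diet. The 3.82% is below the share of 0.05 that this threshold passes on average when no gene differs. Since each library is 1 bird, p-values here measure the spread between these birds. The likelihood ratio test called 3 genes at an adjusted p under 0.05 (0.0246%), DESeq2 called 3 and limma-voom called none. In lane 1 alone the quasi-likelihood test again called no gene, with 451 of 12094 genes at an unadjusted p under 0.05 (3.73%), with 2.36% of genes above and 1.36% below 1.0% Ca, while the likelihood ratio test called 14 genes (0.116%). Within the 1.0% Ca group, 920 genes (7.55%) passed an unadjusted p of 0.05 between the pairs of birds in lanes 1 and 2, and none passed after adjustment. Of the 920 genes, 568 were higher (4.66%) and 352 lower (2.89%) in lane 2, or 456 and 443 when libraries were scaled by total counts alone. DESeq2 called 19 genes between these lanes, and the likelihood ratio test called 1. With a bird of the 1.0% Ca diet left out, the count between these lanes ran from 489 to 1463.

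The 1.0 and 1.2% Ca libraries did not overlap for 566 genes (4.64%), 317 higher (2.6%) and 249 lower (2.04%) at 1.2% Ca. Among them, 152 higher (1.25%) and 98 lower genes (0.804%) also had an unadjusted p under 0.05. Their median log2 fold change was 0.44 for the higher and -0.35 for the lower genes, and 22 and 8 of them differed by at least 2-fold. Their median levels of 29.5 and 29.2 CPM were close to the 33.0 CPM of all tested genes. In lane 1 the direction was the same for 151 of the 152 and 96 of the 98 genes, with libraries shared between both fits, and 60 and 26 of them had an unadjusted p under 0.05 there. With only the 5 lane 1 libraries, 2215 of the 12187 genes did not overlap (18.2%), the higher ones being 9.44% and the lower ones 8.73% of all tested genes. Groups this small also separate for some genes when no gene differs, and more often with fewer birds, so these counts alone show no effect of diet. The mean at 0.8% Ca lay between those of the other diets for 100 of the 152 higher and 58 of the 98 lower genes. These genes were chosen for a gap between 1.0 and 1.2% Ca, and that choice alone favours means at 0.8% Ca inside the gap. A mean at 0.8% Ca inside the gap is also not the order of Ca intake. The means followed that order for 31 of the 152 higher and 29 of the 98 lower genes. The same shares over all tested genes are not given, so an ordered response to Ca intake was not tested.

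The count table gives Ensembl identifiers without names. A name was available for 166 counted genes, from the study's own tables of differences on these birds, and 163 were tested. Of these, 58 came from its table for this same pair of diets, of which 37 had an unadjusted p under 0.05. The named genes are therefore not independent evidence of direction, and most of the genes without overlap and with an unadjusted p under 0.05 have no name here. By the quasi-likelihood test, adjusted p lay between 0.954 and 0.965 for each of the 58 genes whose levels are described below other than TF and ENSGALG00000000860.

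TF, which encodes transferrin, was the gene with the smallest p by the quasi-likelihood and likelihood ratio tests. TF lies on chromosome 9, from 4096869 to 4107617 on the minus strand of Galgal4, and carries the identifier ENSGALG00000006453. Its level was 148.7, 169.8, 201.6 and 143.0 CPM in the birds at 1.0% Ca and 301.6, 339.7 and 324.7 CPM in those at 1.2% Ca. The lowest bird at 1.2% Ca stood well above the highest at 1.0% Ca, and the means were 165.8 ± 26.5 CPM (SD, n = 4) and 322.0 ± 19.2 CPM (SD, n = 3). The birds at 0.8% Ca stood at 244.9, 237.8 and 200.8 CPM. The last was just under the highest bird at 1.0% Ca, and the others lay between the diets.

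TF had a log2 fold change of 0.96 (SE 0.12), or 1.94-fold, with an adjusted p of 0.144 by the quasi-likelihood test and of 3.68e-07 by the likelihood ratio test. In lane 1 it was 1.02 (SE 0.11), with adjusted p of 0.566 and 1.31e-07 by the same tests. The lanes within 1.0% Ca differed by only 0.11 on the log2 scale. Without 1.0% Ca replicate 3, the bird highest in TF on that diet, the log2 fold change was 1.06 and the adjusted quasi-likelihood p 0.0239. Leaving out the bird nearest the other diet favours a smaller p. The quasi-likelihood test did not call TF with any other library left out. The 3 other tested genes within 50 kb of TF had log2 fold changes from -0.29 to 0.10, none past an unadjusted p of 0.05.

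DOCK2 and ENSGALG00000000860 were the other genes called by the likelihood ratio test. DOCK2 activates Rac in leukocytes and drives their migration. It stood at 122.6, 141.3, 93.3 and 83.4 CPM at 1.0% Ca and at 178.9, 189.6 and 202.1 CPM at 1.2% Ca. All 3 birds at 1.2% Ca were higher than all 4 at 1.0% Ca, with a log2 fold change of 0.79 (SE 0.16) and an adjusted p of 0.0325 by the likelihood ratio test. The birds of lane 2 at 1.0% Ca were the lowest, and the log2 fold change was smaller in lane 1, at 0.53 (SE 0.11), where neither test called the gene. The likelihood ratio call of DOCK2 was also lost without replicate 3 or 4 at 1.0% Ca and without replicate 2 or 3 at 1.2% Ca.

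ENSGALG00000000860, a gene on chromosome 11 without a name here, showed a small and even difference. It measured 60.2, 56.6, 54.7 and 54.3 CPM at 1.0% Ca and 75.9, 84.4 and 81.3 CPM at 1.2% Ca. The log2 fold change was 0.51 (SE 0.08), with adjusted p of 0.264 by the quasi-likelihood and 0.0278 by the likelihood ratio test, and 0.47 (SE 0.10) in lane 1, where its adjusted p was 0.507 by the latter test. That call was also lost without replicate 2, 3 or 4 at 1.0% Ca and without replicate 2 or 3 at 1.2% Ca. The likelihood ratio test called only 1 gene without 0.8% Ca replicate 3, without 0.8% Ca replicate 4, and with the 7 libraries of the pair. At least 1 of DOCK2 and ENSGALG00000000860 was therefore not called in each of these fits. Birds at 0.8% Ca, from 65.8 to 70.1 CPM, lay between both diets.

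**Figure D1:**
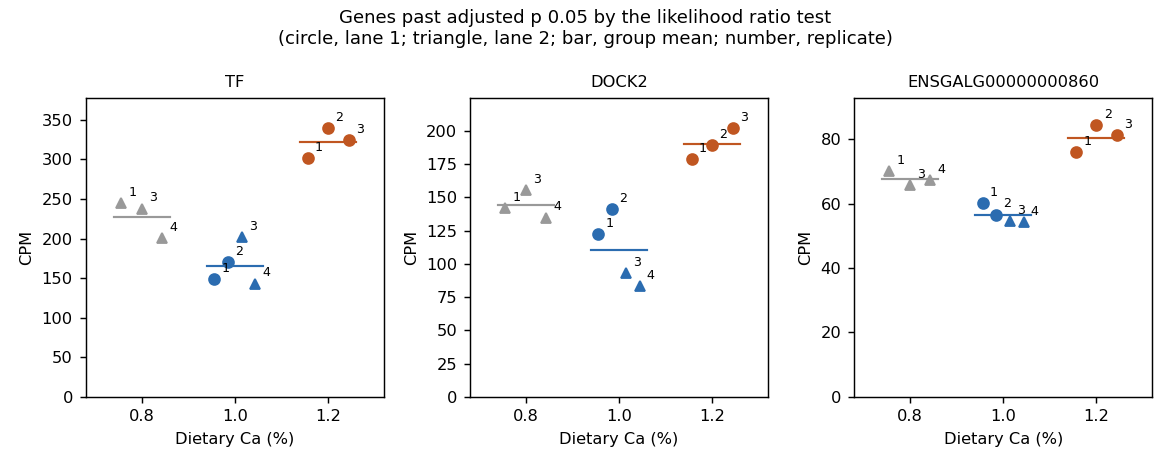
CPM of TF, DOCK2 and ENSGALG00000000860 in each bird against dietary Ca (%), with circles for lane 1, triangles for lane 2, numbers for replicates and bars for group means. In each panel the 3 birds at 1.2% Ca lie above the 4 birds at 1.0% Ca.

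Among further genes with names, 6 were higher in every bird at 1.2% Ca than in any at 1.0% Ca and had an unadjusted p under 0.05, besides TF, DOCK2 and GAL1. With TF, DOCK2 and GAL1 included, such genes were 9 of the 163 tested genes with names, against 1.25% of all tested genes. The names came from the study's tables of differences on these birds, so the 9 are not independent of that choice. The largest ratio belonged to IL22RA2, a soluble decoy receptor that binds interleukin 22. Its counts were only 3, 13, 7 and 1 at 1.0% Ca, against 27, 46 and 24 at 1.2% Ca. The log2 fold change was 2.29 (SE 0.58), and 1.86 (SE 0.62) in lane 1. CCL20, a chemokine that attracts lymphocytes and dendritic cells through CCR6, stood at 8.80, 16.5, 11.6 and 9.68 CPM at 1.0% Ca and at 17.8, 46.0 and 21.1 CPM at 1.2% Ca. Replicate 2 was the highest bird for both genes, and for CCL20 replicate 1 at 1.2% Ca was only just above the highest bird at 1.0% Ca.

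CDCA8, a subunit of the chromosomal passenger complex of mitosis, stood at 49.2, 54.8, 37.6 and 39.5 CPM at 1.0% Ca and at 56.3, 103.2 and 86.5 CPM at 1.2% Ca. Its log2 fold change was 0.86 (SE 0.24), and 0.66 (SE 0.25) in lane 1. VCAN, the matrix proteoglycan versican, had a log2 fold change of 0.66 (SE 0.20), with 135.5 to 189.4 CPM at 1.0% Ca and 193.0 to 320.6 CPM at 1.2% Ca. CRYD2, the delta crystallin with argininosuccinate lyase activity, had one of 0.79 (SE 0.25), and MGST2, a membrane-bound glutathione transferase, one of 0.76 (SE 0.32). In lane 1 the values of VCAN, CRYD2 and MGST2 were 0.87, 1.03 and 0.87. The unnamed gene with the next smallest p among higher genes, ENSGALG00000009058 on chromosome 17, stood at 6.68, 6.84, 4.84 and 5.59 CPM and at 12.5, 10.6 and 9.84 CPM, a log2 fold change of 0.88 (SE 0.17).

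GAL1, GAL2 and LECT2, products of heterophil granules or their precursors, were higher on average at 1.2% Ca, and most so in replicate 1. These birds differed in whole-kidney RNA, in which more cells of a type and more RNA per cell cannot be told apart. Of 36 listed names, aliases included, 4 could be identified, and all 4 were higher, 3 of them with an unadjusted p under 0.05, against 2.45% of all genes. Their median log2 fold change was 1.33, and 1.05 in lane 1, against -0.00248 and 0.0106 over all tested genes. Of the 4, 3 are in the study's own table for this pair, chosen on these birds, and CSF3R, a granulocyte receptor, could not be identified. The summed level of all 4, SERPINB10 included, ranged from 180.2 to 381.8 CPM at 1.0% Ca and was 706.5, 479.0 and 516.1 CPM at 1.2% Ca, with 145.7 to 290.0 CPM at 0.8% Ca. That of GAL1, GAL2 and LECT2 alone was 289.2, 145.5, 151.8 and 122.8 CPM at 1.0% Ca and 666.2, 275.9 and 428.4 CPM at 1.2% Ca, so the diets overlapped.

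GAL1, a beta-defensin also called gallinacin 1, stood at 49.6, 20.0, 23.4 and 20.3 CPM at 1.0% Ca and at 103.2, 53.1 and 77.1 CPM at 1.2% Ca. The groups did not overlap, with replicate 1 the highest bird on both diets. GAL1 had a log2 fold change of 1.47 (SE 0.39), and of 1.18 (SE 0.42) in lane 1. GAL2, a second beta-defensin, stood at 49.6, 22.3, 26.8 and 20.7 CPM and at 99.3, 45.1 and 73.9 CPM, so replicate 2 at 1.2% Ca lay below replicate 1 at 1.0% Ca. Its log2 fold change was 1.30 (SE 0.39), and 1.03 (SE 0.42) in lane 1.

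LECT2, a secreted protein held in the granules of chicken myeloid precursors, stood at 190.1, 103.2, 101.6 and 81.8 CPM at 1.0% Ca and at 463.7, 177.7 and 277.4 CPM at 1.2% Ca. Again replicate 1 was highest on both diets, and replicate 2 at 1.2% Ca lay within the 1.0% Ca range. LECT2 had a log2 fold change of 1.36 (SE 0.38), and 1.07 (SE 0.43) in lane 1. SERPINB10, the fourth identified gene of the list, went another way. It stood at 92.6, 34.7, 158.0 and 89.2 CPM at 1.0% Ca and at 40.3, 203.2 and 87.7 CPM at 1.2% Ca, where replicate 1 was the lowest and replicate 2 the highest bird. SERPINB10 had a log2 fold change of 0.24 (SE 0.52), which changed sign without 1.0% Ca replicate 2 (-0.038) or 1.2% Ca replicate 2 (-0.55).

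The defensin genes sit together on chromosome 3, and some of their neighbours were higher at 1.2% Ca too. Within 50 kb of GAL1, GAL2 and the locus that the study names GAL7, between positions 107019512 and 107147698 of Galgal4, 16 genes were counted, of which 7 passed the filter. Of these 7, 6 were higher at 1.2% Ca, 5 with an unadjusted p under 0.05, against 2.45% of all genes, and 3 were higher without overlap between the groups, against 2.6%. Among the 5, GAL1 and GAL2 are in the study's table for this pair. ENSGALG00000022817 and ENSGALG00000016668 lie in the GAL7 locus, which its tables of differences on these birds also name. The count of 5 is therefore not independent of that choice. The 9 genes below the filter did not exceed 0.840 CPM in any library. ENSGALG00000022817, from 107069509 to 107071114, stood at 49.4, 19.4, 13.6 and 22.1 CPM at 1.0% Ca and at 102.8, 34.0 and 61.7 CPM at 1.2% Ca.

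ENSGALG00000016668, from 107074129 to 107075305, stood at 6.20, 3.91, 1.97 and 1.09 CPM at 1.0% Ca and at 12.5, 6.95 and 14.96 CPM at 1.2% Ca. ENSGALG00000019843, from 107097384 to 107099252, stood at 3.75, 2.65, 1.36 and 1.09 CPM and at 6.88, 4.54 and 6.01 CPM. Neither of these genes overlapped between the diets. Their log2 fold changes were 1.84 (SE 0.45) and 1.41 (SE 0.38), with 1.21 and 0.88 in lane 1, and both were lowest in the lane 2 birds at 1.0% Ca. The first of these and ENSGALG00000022817 both lie inside the GAL7 locus, so which of them carries that name could not be settled. Genes of this family resemble each other in sequence, and how fragments with several alignments were treated is not given in the sources used here, so counts may be shared among them.

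**Figure D2:**
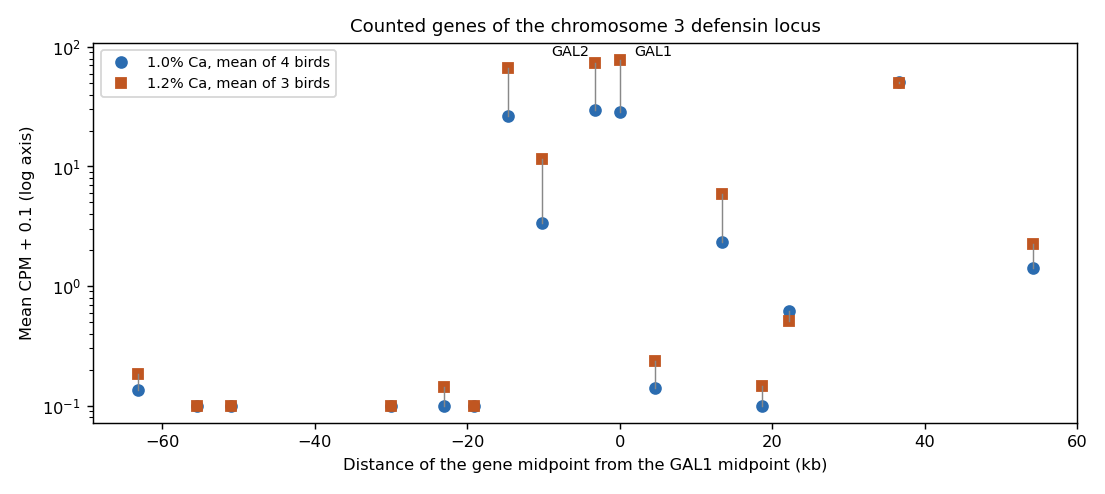
Mean CPM + 0.1 (log axis) of the 16 counted genes of the chromosome 3 defensin locus at 1.0% Ca (circles) and 1.2% Ca (squares) against the distance of each gene's midpoint from that of GAL1 (kb). GAL1, GAL2 and 3 neighbours within 15 kb are higher at 1.2% Ca, while the gene about 37 kb away is level, at 51.1 and 50.01 CPM.

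A second granule gene cluster on chromosome 2, the cathelicidin locus from 3982185 to 3987898, showed the same direction. Its 3 counted genes could not be told apart as CATHL1 or CATHL2, and 1 of them had no counts. The locus was taken from the study's tables of differences on these birds, so its direction is not independent evidence. Both tested genes had an unadjusted p under 0.05, against 2.45% of all genes higher. ENSGALG00000027973 stood at 7.34, 5.58, 4.08 and 3.68 CPM at 1.0% Ca and at 20.5, 11.5 and 10.5 CPM at 1.2% Ca, with no overlap and a log2 fold change of 1.46 (SE 0.36). ENSGALG00000019696 stood at 11.6, 6.70, 5.29 and 7.50 CPM and at 22.7, 8.51 and 19.3 CPM, a log2 fold change of 1.13 (SE 0.46) with overlapping groups. Replicate 1 was the highest bird on each diet for both genes.

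Genes of macrophages and other phagocytes behaved differently among the 3 birds at 1.2% Ca. All 12 identified and tested genes of the 22 listed were higher on average, 5 with an unadjusted p under 0.05 against 2.45% of all genes, but only DOCK2 did not overlap between the diets. The median log2 fold change was 0.76, and 0.99 in lane 1, where 6 of 12 had an unadjusted p under 0.05, against 2.36% of all genes higher. Of the 12, 8 are in the study's table for this pair, and CSF1R, the receptor that defines macrophages, could not be identified. The summed level was 694.6, 599.0, 894.2 and 635.5 CPM at 1.0% Ca and 637.9, 1341 and 1660 CPM at 1.2% Ca. Replicates 2 and 3 at 1.2% Ca were thus above all birds at 1.0% Ca, and replicate 1, which was the highest in the granule genes, was within their range. Birds at 0.8% Ca ranged from 897.6 to 1493 CPM.

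Nox2, the catalytic subunit of the phagocyte NADPH oxidase, stood at 30.7, 32.4, 56.8 and 26.2 CPM at 1.0% Ca and at 26.6, 74.9 and 137.0 CPM at 1.2% Ca. Its log2 fold change was 1.13 (SE 0.45). TLR7, a sensor of single-stranded RNA, stood at 30.2, 26.2, 48.8 and 28.8 CPM and at 26.4, 80.9 and 106.7 CPM, a log2 fold change of 1.09 (SE 0.43). For both genes replicate 1 at 1.2% Ca was as low as the lower birds at 1.0% Ca, and replicate 3 at 1.0% Ca was the highest of its group.

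SPI1, the transcription factor PU.1 of myeloid cells, stood at 67.0, 57.3, 100.8 and 83.6 CPM at 1.0% Ca and at 60.3, 143.3 and 167.3 CPM at 1.2% Ca. DCSTAMP, a membrane protein needed for the fusion of osteoclasts and macrophages, stood at 3.75, 2.93, 16.5 and 5.59 CPM and at 3.91, 25.1 and 44.9 CPM. LY86 and CD180, partners in a surface receptor complex of myeloid and B cells, had log2 fold changes of 0.72 (SE 0.37) and 1.47 (SE 0.62), and F13A1, the A subunit of coagulation factor XIII, one of 0.94 (SE 0.58). Each of these genes showed the same order of the 1.2% Ca birds, low in replicate 1 and high in replicates 2 and 3.

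The phagocyte counts therefore depended on single libraries. Without 1.2% Ca replicate 1, 11 of the 12 genes had an unadjusted p under 0.05, against 438 of all 12319 genes higher, and the median was 1.05. In that fit the likelihood ratio test called 54 genes, 7 of them on this list, while the quasi-likelihood test called none. Without 1.2% Ca replicate 3 the count was 1 of 12 and the median 0.47. Without 1.0% Ca replicate 3 it was 9 of 12, and without any other library of the pair it was 1 of 12. The median was above 0 in each of these fits.

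**Figure D3:**
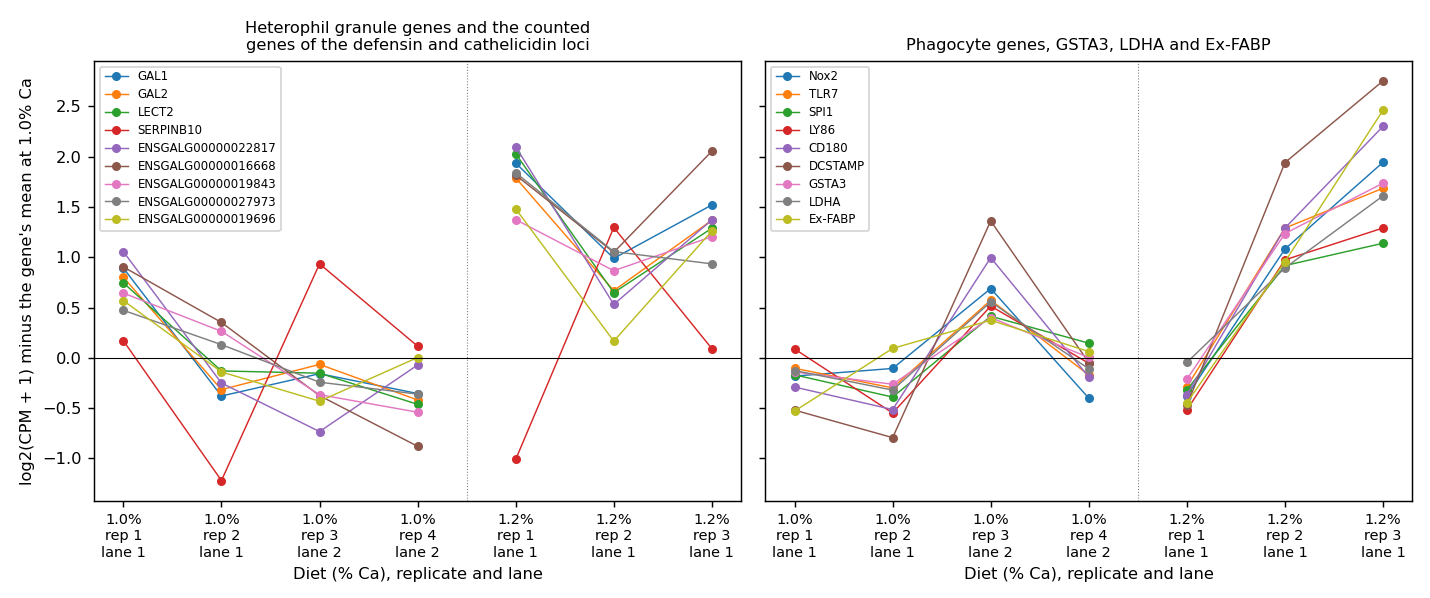
log2(CPM + 1) of each gene minus its mean over the 4 birds at 1.0% Ca (vertical axis), by bird, for 9 genes of the heterophil list and of the defensin and cathelicidin loci (left) and 9 genes that were high in replicates 2 and 3 at 1.2% Ca (right). Lines only join the values of 1 gene. On the left replicate 1 at 1.2% Ca is the highest bird for each gene but ENSGALG00000016668 and SERPINB10, and on the right it lies near the 1.0% Ca level while replicates 2 and 3 are above it.

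Several metabolic and redox genes shared the order of the phagocyte genes over the birds at 1.2% Ca. Ex-FABP, a lipocalin that binds fatty acids and bacterial siderophores, stood at 194.3, 299.7, 364.1 and 293.3 CPM at 1.0% Ca and at 205.7, 545.4 and 1550 CPM at 1.2% Ca. GSTA3, a glutathione transferase, stood at 18.9, 17.3, 28.0 and 21 CPM and at 17.9, 50.7 and 72.1 CPM. LDHA, a lactate dehydrogenase subunit, stood at 186.8, 163.1, 300.3 and 189.0 CPM and at 197.5, 379.6 and 624.3 CPM. In all 3 genes replicate 1 at 1.2% Ca was within the 1.0% Ca range, replicate 3 was the highest bird, and the phagocyte markers moved with them, whose part was not tested.

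Log2 fold changes were 1.41 (SE 0.55) for Ex-FABP, 1.14 (SE 0.38) for GSTA3 and 0.93 (SE 0.36) for LDHA, with 1.64, 1.38 and 1.20 in lane 1. MGST1, the microsomal glutathione transferase, CAPN3, a calcium-dependent protease, SLC1A6, a glutamate transporter, and PRCP, a carboxypeptidase that cleaves angiotensin II, had values of 0.66 (SE 0.25), 1.40 (SE 0.60), 1.5 (SE 0.61) and 0.65 (SE 0.26). CAPN3 was the only identified gene among 22 listed for Ca and phosphate handling, so the transporters and hormone receptors of that pathway could not be described. Of 6 tested redox genes, 4 were higher and 1 lower with an unadjusted p under 0.05, against 2.45% and 1.38% of all genes. Nox2, which is also on the phagocyte list, is among the 4, so these lists are not separate. In the study's table for this pair are 5 of the 6. The count of higher redox genes was 0 without 1.2% Ca replicate 3, 0 against the lane 2 birds alone, 1 without 1.0% Ca replicate 2, and 2 when either 1.0% Ca replicate 1 or 1.2% Ca replicate 2 was dropped.

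Some genes of the urothelium and other lined surfaces were higher, and only in some birds. Of 6 tested genes, 3 had an unadjusted p under 0.05, all higher, against 2.45% of all genes, and 4 of the 6 are in the study's table for this pair. Without 1.2% Ca replicate 1 the count was 0 of 6. On average 4 of the 6 were higher and 2 lower. Their summed level was 558.5, 1061, 484.9 and 699.4 CPM at 1.0% Ca and 867.1, 661.4 and 626.9 CPM at 1.2% Ca, so the diets overlapped. UPK1B, a uroplakin of the urinary tract lining, stood at 4.57, 10.9, 9.22 and 7.50 CPM at 1.0% Ca and at 27.3, 16.3 and 8.44 CPM at 1.2% Ca. TGM3, a transglutaminase of stratified epithelia, stood at 16.1, 11.3, 10.1 and 8.73 CPM and at 34.0, 12.2 and 23.3 CPM. Their log2 fold changes were 1.09 (SE 0.37) and 1.01 (SE 0.36), and that of PLEKHS1 was 0.95 (SE 0.41).

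In lane 1 none of UPK1B, TGM3 and PLEKHS1 had an unadjusted p under 0.05, and of the 6 genes 1 was higher and 1 lower at that threshold. ENSGALG00000000919, the one tested gene of the locus of PIGR, the receptor that carries antibodies across epithelia, ranged from 2.77 to 49.1 CPM at 1.0% Ca and from 24.3 to 109.7 CPM at 1.2% Ca. The adipocyte markers did not move together, with FABP4 at 2.12 to 5.87 CPM and at 1.28 to 24.1 CPM, and LPL at 35.1 to 79.7 CPM and at 38.9 to 53.8 CPM.

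Some genes lower on average at 1.2% Ca differed widely between birds. DPP6, SH3GLB2 and Rd were chosen for description as near 0 in some birds, although Rd held at least 41 counts in each. That trait is therefore not a result about the lower genes. DPP6, an auxiliary subunit of Kv4 potassium channels, stood at 63.4, 59.3, 59.9 and 39.8 CPM at 1.0% Ca and at 1.21, 39.2 and 0.639 CPM at 1.2% Ca. Replicates 1 and 3 at 1.2% Ca held only 9 and 5 counts, whereas replicate 2 held 276 and lay just under the lowest bird at 1.0% Ca. DPP6 had a log2 fold change of -2.05 (SE 0.84). Without 1.2% Ca replicate 2 it was -5.89, with an adjusted p of 0.000874 by the quasi-likelihood test, the only gene called by that test in that fit. Replicate 2 was the bird nearest 1.0% Ca, so leaving it out favours a smaller p. The 3 birds at 0.8% Ca were also near 0, from 0.976 to 2.69 CPM.

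RELN, the secreted matrix protein reelin, followed the same birds. It stood at 196.1, 187.9, 208.4 and 164.2 CPM at 1.0% Ca and at 87.7, 194.0 and 61.6 CPM at 1.2% Ca. Replicate 2 at 1.2% Ca was within the 1.0% Ca range for RELN and just under it for DPP6, and the other 2 birds were lower. The log2 fold change was -0.73 (SE 0.35), with an unadjusted p of 0.063 by the quasi-likelihood test. Its adjusted p was 0.9996 by the likelihood ratio test, so neither test called RELN with all libraries. Without replicate 2 at 1.2% Ca the log2 fold change was -1.34. In that fit RELN had an adjusted p of 0.00743 by the likelihood ratio test, while the quasi-likelihood test did not call it. For RELN too the bird left out was the one nearest 1.0% Ca, which favours a smaller p.

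SH3GLB2, or endophilin B2, a protein that binds curved membranes, stood at 31.5, 16.2, 12.7 and 2.45 CPM at 1.0% Ca and at 2.29, 1.56 and 3.45 CPM at 1.2% Ca. Replicate 4 at 1.0% Ca was as low as the birds at 1.2% Ca. The log2 fold change was -2.64 (SE 0.80), and -3.25 (SE 0.41) in lane 1, with adjusted p of 0.756 by the quasi-likelihood and 7.35e-09 by the likelihood ratio test. ATP8A2, a flippase that moves phospholipids across membranes, stood at 9.13, 14.7, 5.90 and 2.73 CPM and at 3.10, 2.84 and 1.92 CPM, again with replicate 4 at 1.0% Ca low. In lane 1 its log2 fold change was -2.19 (SE 0.33), with an adjusted p of 0.000189 by the likelihood ratio test. With TF these were the 3 genes with names among the 14 that the likelihood ratio test called in lane 1, of which 8 were higher and 6 lower. The other 11 have no name here, and their log2 fold changes there ran from -4.49 for ENSGALG00000022234 to 4.25 for ENSGALG00000016962.

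Rd stood at 20.1, 75.9, 68.5 and 14.3 CPM at 1.0% Ca and at 16.1, 5.82 and 10.2 CPM at 1.2% Ca, with 2 birds at 1.0% Ca high and 2 low. CHAC1, an enzyme that degrades glutathione, stood at 14.2, 107.0, 11.9 and 76.1 CPM and at 12.1, 8.80 and 23.8 CPM, again with only 2 birds high. Their log2 fold changes were -2.06 (SE 0.63) and -1.81 (SE 0.75). In lane 1 they were -2.17 and -2.02, but without 1.0% Ca replicate 2 that of CHAC1 in lane 1 was 0.08.

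**Figure D4:**
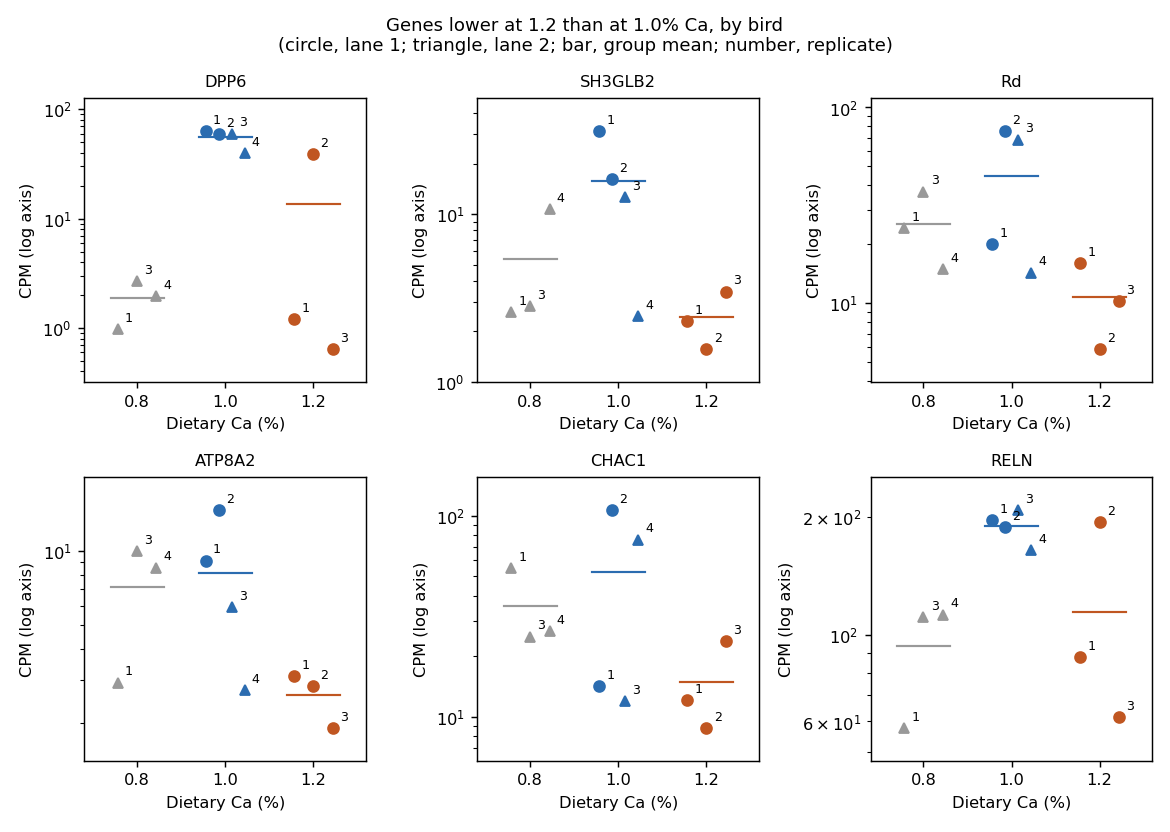
CPM (log axis) of DPP6, SH3GLB2, Rd, ATP8A2, CHAC1 and RELN in each bird against dietary Ca (%), with circles for lane 1, triangles for lane 2, numbers for replicates and bars for group means. In replicate 2 at 1.2% Ca, RELN is within the 1.0% Ca range and DPP6 just under it, and SH3GLB2 and ATP8A2 are low in replicate 4 at 1.0% Ca.

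Beside DPP6, 3 genes with names were lower in every bird at 1.2% Ca than in any at 1.0% Ca with an unadjusted p under 0.05, namely cTR, Enpp2 and SMOC2. With DPP6 included, such genes were 4 of the 163 tested genes with names, against 0.804% of all tested genes. These 4 too were named from the study's tables of differences on these birds. Enpp2, the enzyme autotaxin that makes lysophosphatidic acid, stood at 191.1, 228.2, 196.3 and 173.8 CPM at 1.0% Ca and at 150.0, 87.3 and 140.9 CPM at 1.2% Ca. Its log2 fold change was -0.65 (SE 0.20), and -0.73 (SE 0.22) in lane 1. The log2 fold changes were -0.72 (SE 0.21) for cTR and -0.81 (SE 0.33) for SMOC2, a secreted calcium-binding matrix protein. NAALAD2, a glutamate carboxypeptidase, had one of -1.02 (SE 0.37), with replicate 3 at 1.0% Ca within the 1.2% Ca range.

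NOV, the matricellular protein CCN3, was at 74.7, 93.1, 103.4 and 207.9 CPM at 1.0% Ca and at 68.0, 64.9 and 86.3 CPM at 1.2% Ca. Its log2 fold change was -0.71 (SE 0.30), but -0.20 (SE 0.16) in lane 1, where the high replicate 4 was left out. Among unnamed genes, the smallest p values belonged to ENSGALG00000011421 on chromosome 1, at 5.05, 3.77, 4.69 and 3.82 CPM against 1.62, 2.27 and 1.41 CPM, and to ENSGALG00000005549 on chromosome 19, at 24.3, 19.7, 34.2 and 24.1 CPM against 15.5, 15.5 and 16.4 CPM. Their log2 fold changes were -1.29 (SE 0.27) and -0.69 (SE 0.18), and the diets did not overlap for either.

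Immediate early genes, which are transcribed within minutes of a stimulus, were all lower on average at 1.2% Ca, in 9 of 9 tested members, as were 6159 of all 12187 genes, but only 1 had an unadjusted p under 0.05, against 1.38% of all genes. That count was 4 without 1.0% Ca replicate 3, 3 without 1.2% Ca replicate 3, and 2 without 1.0% Ca replicate 2, in lane 1 and against the lane 2 birds. Of the 9, 4 are in the study's table for this pair. The median log2 fold change was -0.58, and -0.45 in lane 1. The gene past that threshold was KLF2, a transcription factor of endothelium that responds to blood flow, at 237.0, 290.4, 189.7 and 357.8 CPM at 1.0% Ca and at 158.9, 152.1 and 203.3 CPM at 1.2% Ca. Its log2 fold change was -0.65 (SE 0.20), and -0.62 (SE 0.16) in lane 1, where the diets did not overlap.

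EGR1, another immediate early transcription factor, stood at 898.1, 214.1, 329.4 and 1131 CPM at 1.0% Ca and at 410.3, 322.1 and 308.3 CPM at 1.2% Ca. Replicates 1 and 4 at 1.0% Ca were high, and the other birds of that diet were within or below the 1.2% Ca range. SIK1, a kinase of the same list, had a log2 fold change of -0.52 (SE 0.28). The summed level of the list was 2456, 1642, 1448 and 3247 CPM at 1.0% Ca and 1364, 1298 and 1587 CPM at 1.2% Ca.

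The comparison of interferon-induced and mitotic genes changed with the lanes used. Of 13 interferon-induced genes none had an unadjusted p under 0.05 between the diets, with a median log2 fold change of 0.07. Within 1.0% Ca all 13 were higher in lane 2, 10 of them with an unadjusted p under 0.05, against 4.66% of all genes, and the median log2 difference was 1.15. With lane 1 alone, 12 of 13 were higher at 1.2% Ca, against 6340 of 12049 genes, and the median was 0.73. There 3 were higher with an unadjusted p under 0.05, against 2.36% of all genes. The 13 genes were named from the study's tables of differences on these birds, so their counts are not independent of that choice. All 13 moved together between the lanes within 1.0% Ca, so the 10 are not separate observations. Each lane held only 2 birds of that diet, so a lane difference and a difference between birds cannot be told apart. CMPK2, a nucleotide kinase induced by interferon, stood at 101.2 and 95.7 CPM in the lane 1 birds and at 265.6 and 388.7 CPM in the lane 2 birds at 1.0% Ca, and at 285.3, 388.2 and 106.2 CPM at 1.2% Ca.

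EPSTI1 followed the same order, with 36.7, 36.8, 79.7 and 123.7 CPM at 1.0% Ca and 70.8, 144.0 and 42.4 CPM at 1.2% Ca. Birds with high and low levels of these genes were thus present on both diets. CMPK2 had a log2 fold change of 0.29 (SE 0.54) with all libraries, 1.41 (SE 0.49) in lane 1 and -0.33 against the lane 2 birds alone. For EPSTI1 the same values were 0.30 (SE 0.48), 1.22 (SE 0.48) and -0.25.

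All 32 tested genes of mitosis and replication were higher on average at 1.2% Ca, as were 6028 of all 12187 genes. Only CDCA8 had an unadjusted p under 0.05, against 2.45% of all genes, and the median log2 fold change was 0.36. Within 1.0% Ca all 32 were lower in lane 2, with a median of -0.69, and 1 passed that threshold, against 2.89% of all genes lower. In lane 1 alone 21 of 32 were higher at 1.2% Ca, against 6340 of 12049 genes, with a median of 0.05. Against the lane 2 birds, 32 of 32 were higher, and the median was 0.74. Of the 32, 17 had an unadjusted p under 0.05, against 322 of 12154 genes (2.65%). The mitotic genes were named from the study's tables of differences on these birds, so their counts are not independent of that choice. All 32 also moved in the same direction between the lanes, so the 17 are not separate observations.

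The summed level of the mitotic genes was 2796, 2666, 1323 and 2015 CPM at 1.0% Ca and 3700, 2629 and 2069 CPM at 1.2% Ca, so that only replicate 1 at 1.2% Ca was above the highest bird at 1.0% Ca. KIF15, a spindle motor, stood at 76.5, 89.4, 38.4 and 48.7 CPM and at 117.5, 82.2 and 59.7 CPM. NUF2, a kinetochore subunit, had a log2 fold change of 0.54 (SE 0.44), and 0.18 (SE 0.36) in lane 1. GAD2, which makes GABA from glutamate, was likewise lower in lane 2 and had log2 fold changes of 0.82 (SE 0.33) and, in lane 1, 0.45 (SE 0.40).

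**Figure D5:**
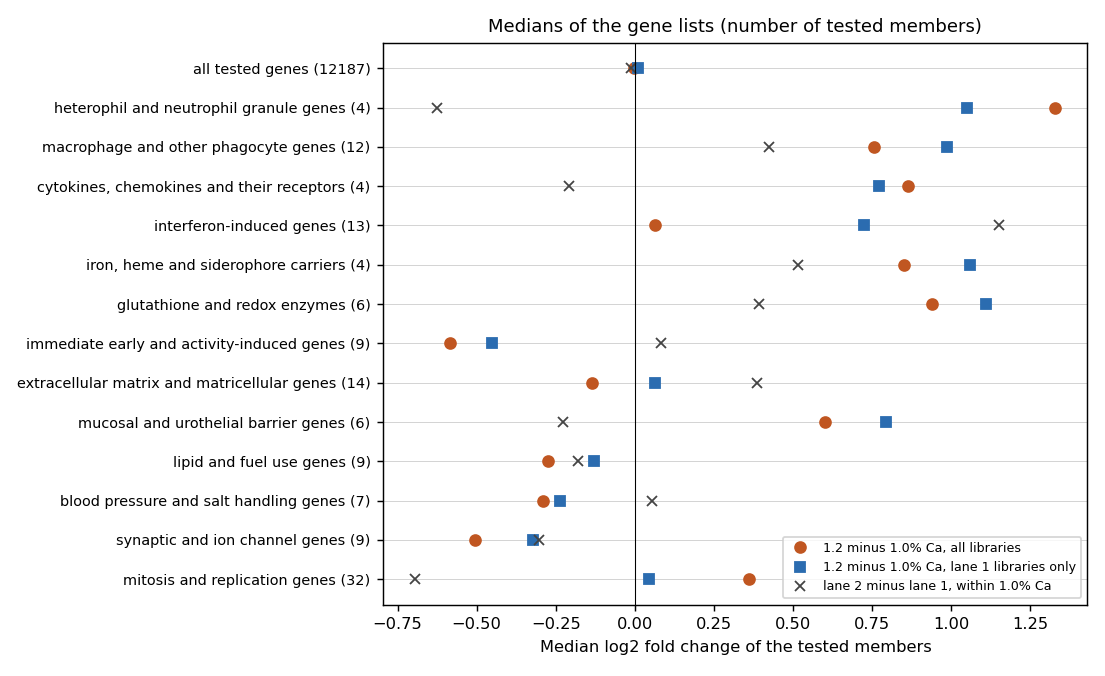
Median log2 fold change (horizontal axis) of the tested members of each gene list, for 1.2 minus 1.0% Ca with all libraries (circles) and with lane 1 only (squares), and for lane 2 minus lane 1 within 1.0% Ca (crosses). Heterophil and phagocyte genes keep medians of 1.05 and 0.99 in lane 1, while mitosis genes move from 0.36 to 0.05 and interferon-induced genes from 0.07 to 0.73.

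In the remaining lists, counts at an unadjusted p under 0.05 stand against 2.45% of all genes higher and 1.38% lower. Their members too were named from the study's tables of differences on these birds, so the counts are not independent of that choice. Of 4 tested cytokines and their receptors IL22RA2 and CCL20 passed, both higher, and of 4 iron and heme carriers TF and Ex-FABP, both higher, with 1 gene of each list in lane 1. Of 14 matrix genes 1 was higher (VCAN) and 2 were lower (SMOC2 and NOV) at that threshold, and their median log2 fold change went from -0.13 to 0.06 in lane 1. Of 9 genes listed as synaptic or channel genes, 5 are in the study's table for this pair. The list is mixed and includes the flippase ATP8A2. Of the 9, 2 were higher (SLC1A6 and GAD2) and 3 lower (DPP6, ATP8A2 and NAALAD2). These became 0 and 0 without 1.2% Ca replicate 3, and 1 higher and 0 lower without 1.0% Ca replicate 2. Lipid genes and blood pressure genes each had 1 member higher and 1 lower, LDHA and Enpp2 in the first, PRCP and KLF2 in the second.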

How the data were processed

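RNA from the kidneys of 10 broilers was sequenced, 1 library per bird. The extraction and library kits are given by the labels as Isol and TruSeq Stranded. The methods text names TRIzol and a TruSeq RNA kit instead, so whether the libraries were stranded is not settled. The authors trimmed the reads, aligned them with HISAT2 2.0.4 to Galgal4 and deposited raw fragment counts per gene, made with featureCounts over Ensembl exons. The file headers show no strand option in the counting, so reads of overlapping antisense genes cannot be told apart. The deposited counts were not normalized. The file headers place the libraries in 2 lanes, and the study's listing of reads per library gives the same lanes. The methods text describes a single lane. The authors' tables of differences hold fold changes and test values, which were not used, and only their pairs of gene name and locus were taken. No deposited column of per-sample values was left out (0 columns). None of the 17108 identifiers matched the RefSeq gene table, so sequences are not analysed here.

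Genes were filtered with filterByExpr (minimum count 10), libraries were scaled by TMM, and the contrast of 1.2 minus 1.0% Ca was tested two-sided with the quasi-likelihood F test of edgeR 4.0.16 in R 4.3.3 over all 10 libraries in 3 diet groups, with Benjamini-Hochberg adjustment. The likelihood ratio test, which the methods name, is given beside it. The study applied that test across its 3 Ca intakes at a looser threshold, and compared pairs of diets with another program, cuffdiff. Its use here on 1 pair is therefore not the study's own test. Lane 1 libraries were fitted alone, and the lane difference within 1.0% Ca came from a fit with that group split by lane. DESeq2 1.42.0, limma-voom (limma 3.58.1), other scalings, filters and sample sets, lane as a covariate, a replicate block and each left-out library served as alternatives. The tests were also run on counts simulated with the spread estimated from these data and no lane difference. That run cannot show which of the tests holds for these birds. CPM and log2 fold changes were computed here from the deposited counts. At 1 CPM a library holds 6.13 to 7.82 counts, so low genes are imprecise.

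The genes described were, first, those called by either test. Next came those with names, an unadjusted p under 0.05 and no overlap between the groups (10 per direction at most). Up to 5 members per gene list were taken by smallest p, and 2 unnamed genes per direction. Counted genes within 50 kb of the defensin and TF loci were also described. The 3 genes DPP6, SH3GLB2 and Rd were added as near 0 in some birds, although Rd held at least 41 counts in each. The cathelicidin and PIGR loci, FABP4 and LPL were described as cell markers. The members, gene lists and tests were chosen with earlier results of these data known.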

Additional observations from a re-analysis of the deposited data

Results flagged for a closer look

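In 3 of the 60 genes whose levels are described, 1 of the 4 birds at 1.0% Ca stood far from the other birds of that diet by Dixon's criterion at 95%. Chance flags about 1 in 20 such groups. SLC1A6 was at 18.29 CPM in replicate 3, against 6.03 to 7.39 CPM in the others. CD180 was at 10.58 CPM in the same replicate, against 3.07 to 4.09 CPM. GAL1 was at 49.56 CPM in replicate 1, against 19.95 to 23.43 CPM.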

How the results depend on the processing

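The 0 genes called between 1.0 and 1.2% Ca became 3 with DESeq2 or the likelihood ratio test and 0 to 1 when each library was left out, TF without 1.0% Ca replicate 3 and DPP6 without 1.2% Ca replicate 2. The 466 genes at an unadjusted p under 0.05 were 726 (322 higher, 404 lower) against the lane 2 birds alone and 401 to 578 with libraries left out. The 3 likelihood ratio calls became 1 without a filter, 1 with the 7 libraries of the pair, 14 in lane 1, 24 against lane 2, and 1 to 54 with libraries left out, 54 without 1.2% Ca replicate 1 and 10 without 1.0% Ca replicate 1. The 566 genes without overlap were 2185 in lane 1 over the genes of that fit, 2783 against lane 2 and 570 to 1648 with libraries left out, 974 to 1648 for the birds of the pair. In lane 1 the 0 calls became 14 with the likelihood ratio test, 8 with DESeq2 and 0 to 1 with libraries left out, the 451 genes at an unadjusted p under 0.05 became 237 to 735, and the 14 likelihood ratio calls became 3 in the fit of all 10 libraries split by lane and 16 to 140 with libraries left out. Between lanes within 1.0% Ca the 0 calls became 19 with DESeq2, 1 with the likelihood ratio test and 0 to 0 with libraries left out, and the 920 genes at an unadjusted p under 0.05 became 489 to 1463, highest without replicate 4.

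Deviations of birds with the same replicate number correlated at -0.0383, -0.166 and 0.111 across genes. Those of birds with different numbers correlated from -0.343 to 0.271. No pairing by replicate number was thus seen, but so few birds cannot settle whether the numbers pair them. With the replicate number as a block the quasi-likelihood test called 0 genes, the likelihood ratio test 9 between the diets and 91 in lane 1, and 1 gene differed between lanes within 1.0% Ca. Against the lane 2 birds CMPK2 was at -0.33, EPSTI1 at -0.25 and SERPINB10 at -0.16 on the log2 scale. With libraries left out CMPK2 ran from -0.12 to 0.74, EPSTI1 from -0.29 to 0.74 and SERPINB10 from -0.55 to 0.64. In lane 1 with libraries left out, EGR1 ran from -1.37 to 0.70, KIF15 from -0.22 to 0.27, FABP4 from -0.086 to 1.68, CHAC1 from -2.83 to 0.081, NUF2 from -0.14 to 0.47 and LPL from -0.33 to 0.37. LPL in lane 1 was also at 0.018 with limma-voom and at 0.11 with the block. The other 54 of the 60 genes kept their direction in lane 1 under the alternatives, and 57 of 60 with all libraries. The cause of these changes was not tested. With 3 and 4 birds, and 2 at 1.0% Ca in lane 1, the number of birds limits the precision.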
